A study of Mus musculus with 6 samples.

Results

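Integrins are the receptors by which fibroblasts hold on to the matrix, and 10 of their subunit genes are described here in cells sorted from the healing mouse infarct. The genes, given by name, were Itga1, Itga4, Itga5, Itga7, Itga8, Itga11, Itgav, Itgb1, Itgb3 and Itgb5. All 10 were found among the 42256 genes of the deposited table, which holds 27 integrin subunit genes in all. RNA was profiled by sequencing in PDGFRa+ cells, a fibroblast fraction obtained by flow sorting of digested scar, in 6 libraries from mice of a mixed 129S2/C57Bl6 background, 7 days after the infarct. The 4 Htr2b_cKO libraries carried Htr2bfl/fl, a floxed gene of the serotonin receptor 5-HT2B, together with PostnMCM/+, a tamoxifen-inducible Cre at 1 allele of the periostin gene. The 2 control libraries carried Htr2bfl/fl without the Cre. Mice of both groups ate tamoxifen chow from 1 week before and through the experiment. The Cre acts only in cells that switch on Postn, and no control carried it, so effects of Htr2b loss, of the Cre and of the altered Postn allele cannot be told apart. The labels do not give the ages of the mice.

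An integrin is a dimer of 1 alpha and 1 beta subunit that spans the membrane, binds a matrix protein outside the cell and couples through talin and kindlin to actin inside it. The beta 1 subunit pairs with many alpha subunits, whereas beta 3 and beta 5 pair with alpha v. In fibroblasts, integrins carry traction to the collagen network, and the alpha v dimers are known for releasing active TGF-β from its latent complex. By ligand, alpha 1 and alpha 11 bind collagens, alpha 5, alpha 8 and alpha v bind proteins with the Arg-Gly-Asp motif such as fibronectin and vitronectin, alpha 4 binds fibronectin and VCAM-1, and alpha 7 binds laminin.

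The promoters of Itgb1 and Itga11 are shown because these were the members whose Htr2b_cKO libraries all lay above both controls, and because their products form a single collagen-binding dimer. Of all genes tested, 10.6% lay above in this way, and neither Itgb1 nor Itga11 passed the test between genotypes given below. Each promoter is the 250 bases before the transcription start in RefSeq, build GRCm38.p6, printed 5′ to 3′. The windows are chr8:128685404-128685653 for Itgb1 and chr9:62677605-62677854 for Itga11, both on the plus strand. In GENCODE M21, from which the gene positions came, Itga11 begins at 62677826, inside the Itga11 window. Capitals mark matches to GGAATG, the TEAD motif, or GGGCGG, the GC box, searched on both strands along with TGANTCA for AP-1, GTCTAGAC for SMAD and TATAAA for the TATA box.
Itgb1: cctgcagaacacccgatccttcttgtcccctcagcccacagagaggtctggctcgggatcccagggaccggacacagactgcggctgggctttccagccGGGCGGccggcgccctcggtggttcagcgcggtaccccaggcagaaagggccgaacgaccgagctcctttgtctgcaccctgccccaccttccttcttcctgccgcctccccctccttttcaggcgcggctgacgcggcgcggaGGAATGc
Itga11: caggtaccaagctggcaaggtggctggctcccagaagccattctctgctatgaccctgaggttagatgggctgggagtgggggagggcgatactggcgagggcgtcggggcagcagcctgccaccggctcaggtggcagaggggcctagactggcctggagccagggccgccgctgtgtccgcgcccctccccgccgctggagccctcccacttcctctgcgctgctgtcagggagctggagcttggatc
The Itgb1 window held 1 GC box, beginning 151 bases before the start, and 1 TEAD match, beginning 7 bases before it. The Itga11 window held none of the 5 motifs, which says only that these letters are not in this window. Among 32851 promoter windows of the same length, 32.7% held a GC box, 12.6% a TEAD match, 6.75% an AP-1 match, 12.4% a TATA box and 0.167% the SMAD palindrome. No 2 of the capitalised matches overlapped.

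The libraries held 28533427 to 34830718 estimated counts in the Htr2b_cKO group, and 28565473 and 37392496 in the control group. Htr2b gave 0, 3, 29 and 4 counts in Htr2b_cKO libraries 1 to 4, against 13 and 7 in the controls. The library labelled Htr2b_cKO 3 thus had more counts than either control, against the direction its label would give. A count of 0 allows up to 3 counts, or 0.107 CPM in Htr2b_cKO 1. Gene-level counts are blind to a missing exon, so they cannot tell whether the label of that library is wrong. Htr2b_cKO 4 was the only male library, with 139 CPM over 4 Y-linked genes. All 7 fibroblast genes examined, Pdgfra and the type I collagen genes among them, were at 26.1 CPM or more in every library. Genes of macrophages, a cell type that also bears integrins, were present throughout. The sum of 8 macrophage genes was 858, 2213, 4192 and 497 CPM in Htr2b_cKO libraries 1 to 4, against 2625 and 916 CPM in controls 1 and 2, and 0 of the 8 were at 0 in any library. In sorted bulk cells, fewer cells of a type and less RNA per cell cannot be told apart. CPM here is scaled to library size by TMM, and nothing in the labels separates litters or batches.

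Set per kilobase of exon (RPKM, the TMM-scaled CPM divided by exon length), Itgb1 was the most abundant of the 10 members and Itga4 the least. Itgb1 averaged 202 ± 21 RPKM and Itgb5 120 ± 23 RPKM (SD, n = 6 libraries). Itga5, the alpha chain of the classical fibronectin receptor, averaged 54.5 ± 11.1 RPKM. Each of these lay apart from the next, in that its lowest library exceeded the highest library of the gene below it. Itgav followed at 17.2 ± 3.7 RPKM, Itgb3 at 10.9 ± 2.4 RPKM and Itga11 at 7.0 ± 1.5 RPKM. Of these, Itgav overlapped Itgb3, and Itgb3 overlapped Itga11. Below a gap, Itga1 at 1.19 ± 0.13 RPKM, Itga7 at 1.16 ± 0.20 RPKM, Itga8 at 0.738 ± 0.496 RPKM and Itga4 at 0.564 ± 0.318 RPKM each overlapped their neighbour. With the length of the longest transcript in place of all exons, Itga1 averaged 2.02 RPKM and Itga7 2.33 RPKM, so that they exchanged places, and no other rank changed.

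**Figure D1:**
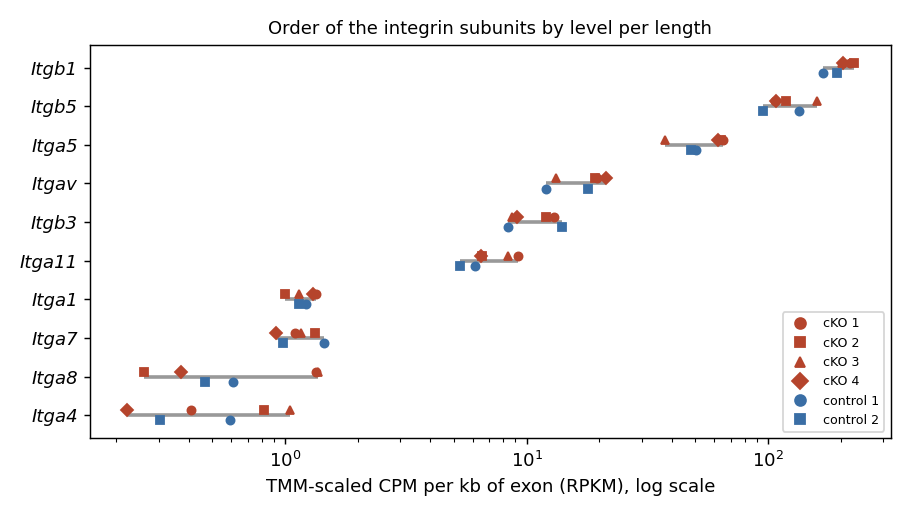
Level of each integrin subunit as TMM-scaled CPM per kilobase of exon (RPKM, log axis), one point per library, with Htr2b_cKO libraries (cKO) in red and controls in blue; grey bars span the 6 libraries. Itgb1, Itgb5 and Itga5 each stand apart from the gene below them, and the 4 lowest genes overlap.

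Among the RPKM of the beta members, Itgb1 made up 64.5, 63.6, 54.5 and 63.6% in Htr2b_cKO libraries 1 to 4, against 54.2 and 63.8% in controls 1 and 2. Itgb5 made up 31.5 to 43.1% over the 6 libraries and Itgb3 2.35 to 4.66%. The lower Itgb1 shares were those of the library labelled Htr2b_cKO 3 and of control 1, where the Itgb5 shares were 43.1% each. Among the alpha members Itga5 made up 58.6 to 69.6% and Itgav 16.6 to 24.3%. Itga11 made up 6.99 to 13.2%, and each of the other 4 alpha members 2.15% or less in every library. The alpha members together came to 0.407 ± 0.065 of the Itgb1 level in Htr2b_cKO libraries (n = 4) and 0.407 ± 0.030 in controls (SD, n = 2), as a ratio of RPKM.

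Of the 10 members, 0 passed the test between genotypes (edgeR quasi-likelihood, Benjamini-Hochberg adjusted p of 0.533 to 0.977), and 0 had an unadjusted p under 0.05. Over the whole table, 3 of 15840 genes tested passed, which is 0.0189%, while 6.6% had an unadjusted p under 0.05 on the higher and 2.99% on the lower side. DESeq2 called 106 genes, or 0.666% of those it gave an adjusted p, and again 0 of the 10. Since all 10 members passed the filter on low counts, none was left out. The log2 fold change, Htr2b_cKO minus control, was above 0 for 8 members and below 0 for 2, against 50% of all genes above 0. The median over the members was 0.23, against 0.00 over all genes tested, and it was 0.05, with 7 members above 0, once the libraries were adjusted for GC content and gene length. Htr2b_cKO libraries lay wholly above both controls for 2 members, Itgb1 and Itga11, and wholly below for 0. Over all genes 10.6% lay wholly above, 8.98% wholly below and 19.6% on either side. Without the library labelled Htr2b_cKO 3, 4 members lay wholly above, Itga5 and Itgav being added, against 16.2% of all genes. With Htr2b_cKO 4 left out as well the number was again 4, against 20.8% of all genes.

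**Figure D2:**
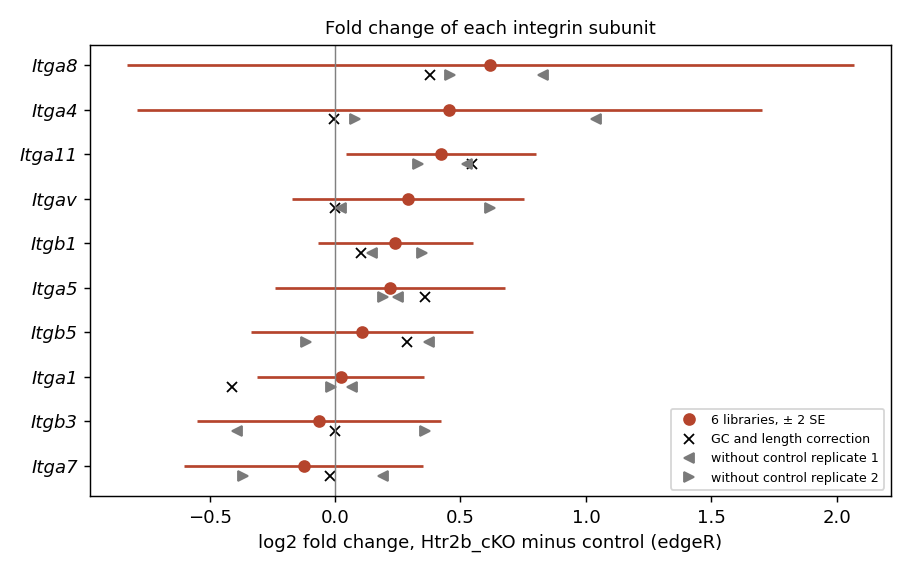
Log2 fold change of each integrin subunit (Htr2b_cKO minus control, edgeR), with bars of 2 SE on either side; crosses give the value adjusted for GC and length and grey triangles the value without each control. The bar of Itga11 lies above 0 and the other 9 cross it, while the triangles of Itga1, Itga7, Itgb3 and Itgb5 fall on both sides of 0.

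Itgb1 (ENSMUSG00000025809, chromosome 8 from 128685654 to 128733200 in mm10), whose product is the shared partner of most alpha chains, had 888, 927, 825 and 835 CPM in Htr2b_cKO libraries 1 to 4, against 688 and 784 CPM in controls 1 and 2. The groups did not overlap, and the gap between the lowest Htr2b_cKO library and control 2 was smaller than the SD within each group, 47.7 CPM in Htr2b_cKO libraries and 68.5 CPM in controls. Htr2b_cKO minus control came to 0.24 log2 units (SE 0.15, edgeR adjusted p = 0.651), and 2 SE on either side reached from 0.95-fold to 1.46-fold. Without control 1 the difference was 0.15, and adjusted for GC and length it was 0.10. With a coefficient of variation of 10.2% over the 6 libraries, Itgb1 was the steadiest member, closely followed by Itga1 at 10.5%.

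Itgb5 (ENSMUSG00000022817, chromosome 16 from 33829665 to 33949338), whose product pairs with alpha v to bind vitronectin, had 380, 420, 569 and 383 CPM in Htr2b_cKO libraries, against 476 and 337 CPM in controls. The library labelled Htr2b_cKO 3 was the highest and control 1 the next, and the groups overlapped widely. Between the group means lay 0.11 log2 units (SE 0.22, edgeR adjusted p = 0.906), which became -0.11 without control 2 and 0.37 without control 1.

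Itgb3 (ENSMUSG00000020689, chromosome 11 from 104608000 to 104670476), which also pairs with alpha v and in platelets with alpha IIb, had 76.6, 71.1, 51.5 and 53.8 CPM in Htr2b_cKO libraries, against 49.6 and 82.8 CPM in controls. The highest and the lowest value were both those of controls. Its log2 fold change of -0.06 (SE 0.24, edgeR adjusted p = 0.954) became 0.36 without control 2 and -0.39 without control 1. The 6 platelet genes summed to 19.7, 66.4, 83.4 and 18.2 CPM in Htr2b_cKO libraries, against 85.7 and 35.1 CPM in controls. Of these, 5 were tested, and all 5 had a log2 fold change below 0, with 0 passing. Gp9 had 0.0604 to 0.211 CPM in Htr2b_cKO libraries, against 1.54 and 0.362 CPM in controls. Treml1 had 0 to 0.361 CPM in Htr2b_cKO libraries, against 1.17 and 0.325 CPM in controls. Pf4, which macrophages also express, had 6.45 to 68.2 CPM over the 6 libraries, Itga2b 6.56 to 13.8 CPM and Ppbp 1.21 to 8.27 CPM, while Gp1ba was at 0.21 CPM or less and at 0 in Htr2b_cKO 2 and the library labelled Htr2b_cKO 3. The part of platelet RNA in the Itgb3 level was not tested. The ratio of Itgb5 to Itgb3, in RPKM, was 8.24, 9.81, 18.3 and 11.8 in Htr2b_cKO libraries, against 15.9 and 6.76 in controls, so the spread within each genotype exceeded the difference between their means of 12.1 and 11.4.

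**Figure D3:**
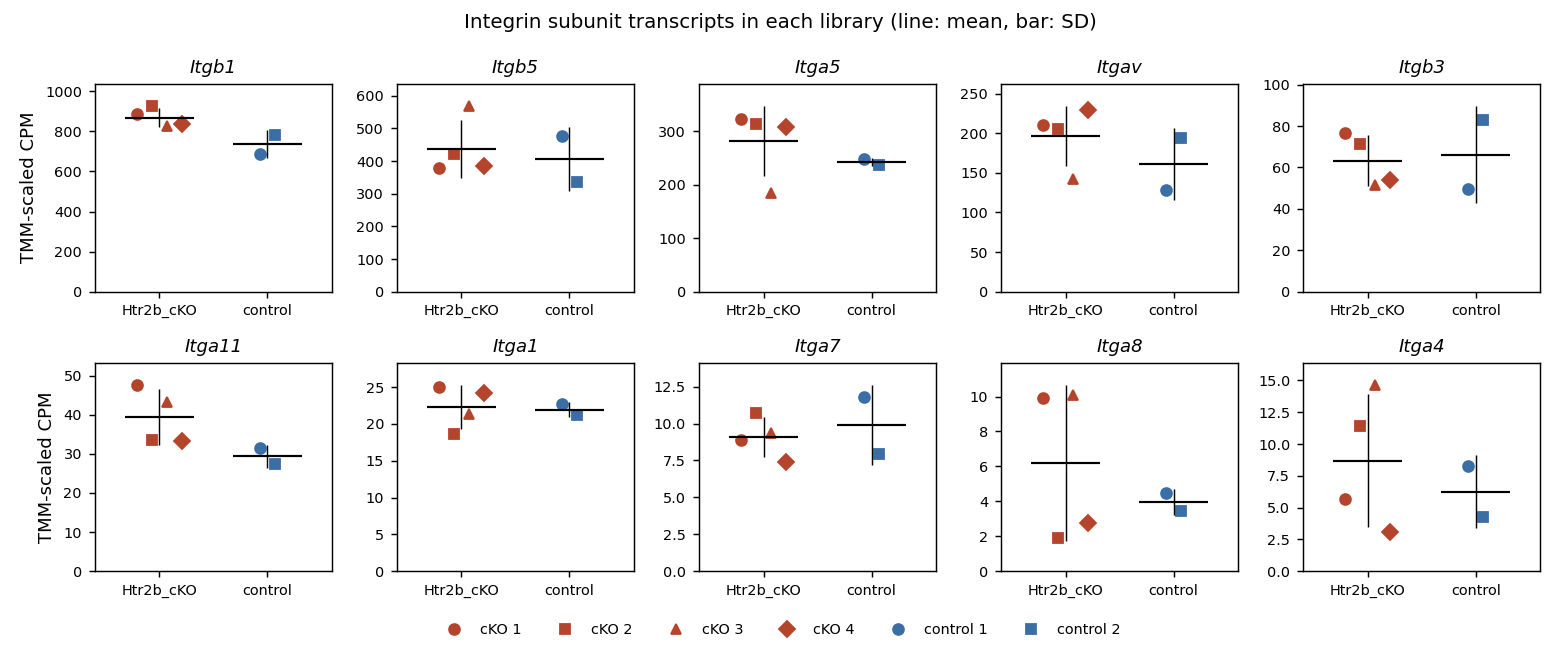
TMM-scaled CPM of each integrin subunit in every library, Htr2b_cKO left of control, one symbol per library, with the group mean (line) and SD (bar, n = 4 and 2). Itgb1 and Itga11 are the panels in which the red points all lie above the blue ones, and Itga8 and Itga4 spread most within the Htr2b_cKO group.

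Of the collagen receptors, Itga11 (ENSMUSG00000032243, chromosome 9 from 62677826 to 62783982), a fibroblast receptor for fibrillar collagen, had 47.5, 33.4, 43.2 and 33.3 CPM in Htr2b_cKO libraries, against 31.4 and 27.3 CPM in controls. All Htr2b_cKO libraries lay above both controls, libraries 2 and 4 narrowly. Among the members this gene had the smallest p, for a log2 fold change of 0.42 (SE 0.19, edgeR unadjusted p = 0.054, adjusted p = 0.533). Over the 14 alternatives it ranged from 0.33 to 0.55 and its adjusted p from 0.465 to 0.999, so the sign held in all of them and the test was passed in none.

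Itga1 (ENSMUSG00000042284, chromosome 13 from 114953096 to 115101964), a receptor for collagen and laminin, had 25.1, 18.6, 21.3 and 24.2 CPM in Htr2b_cKO libraries, against 22.7 and 21.2 CPM in controls. Both controls fell inside the range of the Htr2b_cKO libraries. The difference of 0.02 log2 units (SE 0.17, edgeR adjusted p = 0.977), with 2 SE on either side reaching from 0.81-fold to 1.28-fold, became -0.41 when adjusted for GC and length. The ratio of Itga1 to Itga11, in RPKM, was 0.146, 0.154, 0.136 and 0.200 in Htr2b_cKO libraries, against 0.199 and 0.214 in controls. Htr2b_cKO 4 lay just above control 1, so this ratio overlapped between the groups as well. Over the 6 libraries its mean was 0.175, and 0.287 with the length of the longest transcript.

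Of the receptors for the Arg-Gly-Asp motif, Itga5 (ENSMUSG00000000555, chromosome 15 from 103344286 to 103366763) had 322, 314, 184 and 307 CPM in Htr2b_cKO libraries, against 248 and 237 CPM in controls. Htr2b_cKO libraries 1, 2 and 4 lay above both controls and close to each other, whereas the library labelled Htr2b_cKO 3 lay below both. Over all libraries the difference was 0.22 log2 units (SE 0.23, edgeR adjusted p = 0.791). Without the library labelled Htr2b_cKO 3 it was 0.39 (adjusted p = 0.314), which still did not pass. That library had the highest macrophage sum, at 4192 CPM. Its sum over the 7 fibroblast genes was the lowest, at 43691 CPM. The other Htr2b_cKO libraries had 62917 to 74372 CPM and the controls 55252 and 65164 CPM. In the library labelled Htr2b_cKO 3, Col1a1 and Col1a2 made up most of this sum, at 17266 and 16903 CPM. These genes and Pdgfra were lowest in that library. Dcn, Lum, Tcf21 and Postn were instead highest in it, at 4884, 1550, 108 and 2312 CPM. The part of macrophage or fibroblast RNA in the Itga5 value was not tested.

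Itgav (ENSMUSG00000027087, chromosome 2 from 83724397 to 83806916) had 210, 206, 142 and 229 CPM in Htr2b_cKO libraries, against 129 and 193 CPM in controls. The lowest values were in control 1 and the library labelled Htr2b_cKO 3, the libraries with the highest macrophage sums, and that relation was not tested. A log2 fold change of 0.29 (SE 0.23, edgeR adjusted p = 0.713) rested on the choice of control, at 0.02 without control 1 and 0.62 without control 2, and it was 0.00 when adjusted for GC and length. An antisense-strand transcript gene, Gm13684, overlaps 5.90% of the exon length of Itgav and had 0 counts in every library.

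Itga8 (ENSMUSG00000026768, chromosome 2 from 12106632 to 12301922), the alpha chain of the nephronectin receptor, was the most variable member, with a coefficient of variation of 67.2% over the 6 libraries. It had 9.94, 1.93, 10.1 and 2.73 CPM in Htr2b_cKO libraries, against 4.48 and 3.43 CPM in controls, from 64 to 335 estimated counts. Htr2b_cKO libraries 1 and 3 were above both controls and libraries 2 and 4 below both, a 5.25-fold range that the genotype label did not separate. The fitted difference was 0.62 log2 units (SE 0.73, edgeR adjusted p = 0.818), and 2 SE on either side, from 0.56-fold to 4.20-fold, hold both a lower and a several-fold higher level. It was 0.31 without Htr2b_cKO 1, 0.26 without the library labelled Htr2b_cKO 3, 0.23 with limma voom and 0.38 when adjusted for GC and length. Of the mural genes, a cell type that also carries alpha 8, the 7 summed to 178, 182, 141 and 139 CPM in Htr2b_cKO libraries, against 232 and 140 CPM in controls. Des made up 61.7 to 115 CPM of these sums over the 6 libraries, and 0 of the 7 genes were at 0 in any library. The part of mural RNA in the Itga8 level was not tested. An antisense gene, E030013I19Rik, overlaps 5.05% of the exon length of Itga8 on the other strand.

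Itga4 (ENSMUSG00000027009, chromosome 2 from 79255426 to 79333123), which leukocytes use to bind VCAM-1, had 5.70, 11.4, 14.6 and 3.09 CPM in Htr2b_cKO libraries, against 8.30 and 4.23 CPM in controls. The library labelled Htr2b_cKO 3 and Htr2b_cKO 2 were highest and Htr2b_cKO 4 lowest. The fitted difference of 0.46 log2 units (SE 0.62, edgeR adjusted p = 0.847) was smaller than its error, and it was 1.04 without control 1, 0.078 without control 2, 0.091 without the library labelled Htr2b_cKO 3 and -0.0048 when adjusted for GC and length. The 3 libraries with the highest macrophage sums, the library labelled Htr2b_cKO 3, control 1 and Htr2b_cKO 2, were also the 3 with the most Itga4, and Htr2b_cKO 4 was the lowest for both. The part of macrophage RNA in the Itga4 level was not tested. In RPKM, Itga5 stood 35.7 to 282 times above Itga4 in Htr2b_cKO libraries, against 84.6 and 159 times in controls. The coding gene Cerkl overlaps 8.04% of the exon length of Itga4 on the other strand, and whether the counting used strand is not given in the sources used here.

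Itga7 (ENSMUSG00000025348, chromosome 10 from 128933818 to 128958282), the laminin receptor chain of striated and smooth muscle, had 8.87, 10.7, 9.39 and 7.43 CPM in Htr2b_cKO libraries, against 11.8 and 7.95 CPM in controls. The values overlapped, with control 1 the highest. The difference of -0.13 log2 units (SE 0.24, edgeR adjusted p = 0.898) became 0.19 without control 1. The 7 cardiomyocyte genes summed to 10.9 to 29.6 CPM in Htr2b_cKO libraries, against 36.3 CPM in control 1 and 9.80 CPM in control 2. The 7 mural genes likewise peaked in control 1, at 139 to 182 CPM in Htr2b_cKO libraries, against 232 and 140 CPM in controls 1 and 2. Their part in the Itga7 level was not tested.

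Across the members, no library was uniformly high or low. Htr2b_cKO 1 and the library labelled Htr2b_cKO 3 were each the highest for 3 members, and control 1 was the lowest for 3. The summed CPM of the 10 members was 1871 to 2014 in Htr2b_cKO libraries, against 1669 and 1699 in controls, a sum of which Itgb1 and Itgb5 make up most. By the smallest root mean square difference of centred log2 values over the 6 libraries, the genes with the profile nearest to that of Itgb1 were Rbl1 at 0.02, Tcea1 at 0.02 and Pls3 at 0.03, where the deviation of Itgb1 from its own mean was 0.14. Those nearest to Itga5 were Ak4 at 0.06, Pole at 0.06 and Siah1b at 0.07, against 0.29 for Itga5 itself. With 13575 genes searched over 6 libraries, such near matches are a description only.

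**Figure D4:**
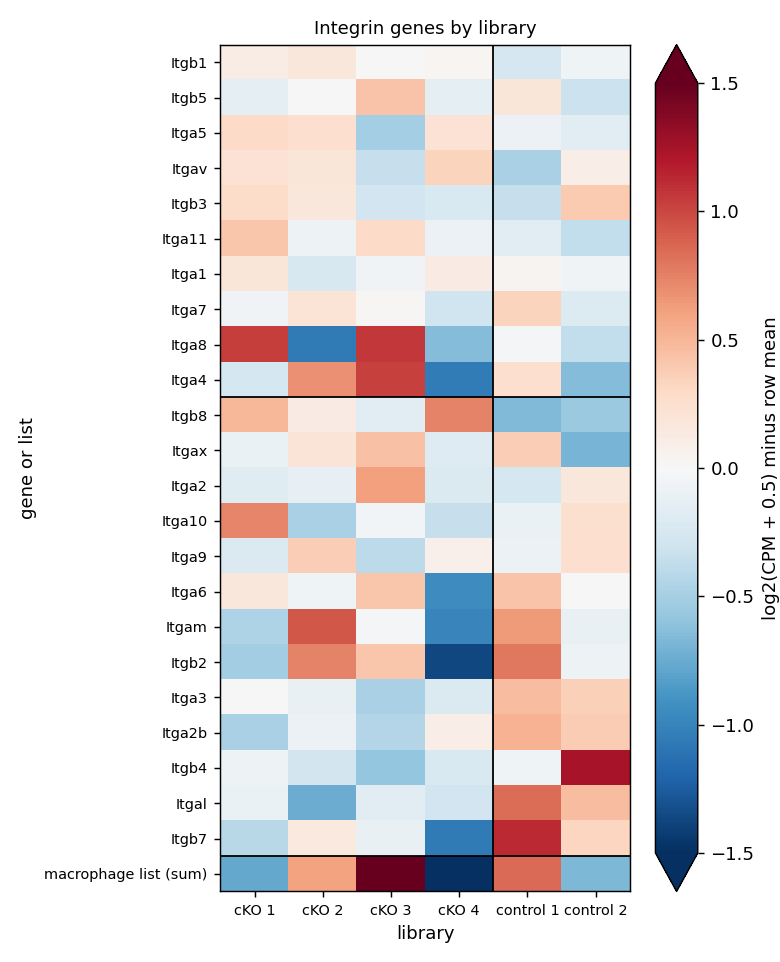
Log2(CPM + 0.5) minus the mean of each row, for the 10 members (top, in order of level), 13 other integrin genes (middle) and the sum of 8 macrophage genes (bottom), by library, with Htr2b_cKO libraries (cKO) left of controls; the colour scale ends at 1.5 on either side. Itga8 and Itga4 change most between libraries among the members, and Itgb8 is the integrin gene of the middle block that is above the controls in all 4 Htr2b_cKO libraries.

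Of the 17 integrin genes outside the list, 13 averaged at least 1 CPM and were tested, and 0 passed. Of the 13, 3 had a log2 fold change above 0 and 10 below, with a median of -0.27, and Htr2b_cKO libraries lay wholly above both controls for 1 and wholly below for 5, where 10.6% of all genes lay wholly above and 8.98% wholly below. Itgb8, whose product pairs with alpha v and binds latent TGF-β, had 33.2, 25.6, 21.0 and 39.5 CPM in Htr2b_cKO libraries, against 14.6 and 15.8 CPM in controls. A log2 fold change of 0.97 (SE 0.26, edgeR unadjusted p = 0.00485, adjusted p = 0.356) became 0.49 when adjusted for GC and length. Itgal, the alpha chain of LFA-1 on leukocytes, had 5.17, 3.10, 4.89 and 4.46 CPM in Htr2b_cKO libraries, against 10.3 and 7.88 CPM in controls (log2 fold change -1.06, SE 0.27, edgeR adjusted p = 0.339).

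The other integrin genes with no overlap were Itgb7, Itgb4, Itga2b and Itga3, each lower in all Htr2b_cKO libraries than in either control. Itgb7, a leukocyte chain that pairs with alpha 4, averaged 2.77 ± 1.07 CPM in Htr2b_cKO libraries and 6.36 ± 2.60 CPM in controls. Itga3, a laminin receptor chain, averaged 7.42 ± 1.10 CPM in Htr2b_cKO libraries and 11.5 ± 0.6 CPM in controls (SD, n = 4 and 2). Itga2b, the platelet chain, averaged 8.08 ± 1.69 CPM in Htr2b_cKO libraries and 13.1 ± 0.9 CPM in controls. Itgb4, of the epithelial laminin receptor, averaged 5.42 ± 0.84 CPM in Htr2b_cKO libraries and 11.4 ± 7.1 CPM in controls. For this gene control 2 was at 16.4 CPM, while control 1 at 6.37 CPM lay just above Htr2b_cKO 1 at 6.31 CPM. Of these 4, the adjusted p was 0.41 to 0.427 in the edgeR fit. The log2 fold change was -1.22 for Itgb7, -1.05 for Itgb4, -0.70 for Itga2b and -0.64 for Itga3. Without control 1 these values were -0.71, -1.60, -0.62 and -0.58, and without control 2 they were -1.56, -0.23, -0.76 and -0.68. The 6 lymphocyte genes summed to 1.25 to 6.07 CPM in Htr2b_cKO libraries, against 14.1 and 4.74 CPM in controls, so the sums overlapped, and 4 of the 6 were at 0 in at least 1 library. Of the 5 lymphocyte genes tested, 4 had a log2 fold change below 0 and 1 above, with a median of -1.60, and 0 passed. The 6 epicardial and mesothelial genes, of an epithelium-like layer, summed to 242 to 317.6 CPM in Htr2b_cKO libraries, against 318.2 and 415 CPM in controls. All 6 had a log2 fold change below 0, none passed the test, and 0 were at 0 in any library. The part of either cell type in these integrin levels was not tested.

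The remaining integrin genes overlapped between the groups. Itga9 averaged 82.5 ± 19.6 CPM in Htr2b_cKO libraries and 88.3 ± 14.6 CPM in controls, and per kilobase of exon its level was near that of Itgb3. The macrophage and neutrophil chains Itgam and Itgb2 had their lowest values, 31.4 and 21.1 CPM, in Htr2b_cKO 4, the library with the lowest macrophage sum. The library labelled Htr2b_cKO 3, with the highest macrophage sum, was highest for neither, at 62.3 CPM of Itgam and 73.7 CPM of Itgb2. Itgam was highest in Htr2b_cKO 2, at 120 CPM, and Itgb2 in control 1, at 95.5 CPM. The 6 neutrophil genes summed to 25.0, 27.8, 34.6 and 78.0 CPM in Htr2b_cKO libraries 1 to 4, against 98.4 and 35.7 CPM in controls 1 and 2. The part of macrophage or neutrophil RNA in the Itgam and Itgb2 levels was not tested. Itgam averaged 64.8 ± 39.0 CPM in Htr2b_cKO libraries and 78.2 ± 28.5 CPM in controls, and Itgb2 averaged 56.5 ± 32.6 CPM in Htr2b_cKO libraries and 73.8 ± 30.6 CPM in controls. Itga6 averaged 26.1 ± 9.3 CPM in Htr2b_cKO libraries and 31.2 ± 6.7 CPM in controls. For Itga10 the means were 9.41 ± 4.13 CPM in Htr2b_cKO libraries and 9.63 ± 1.66 CPM in controls. Itga2 had means of 5.12 ± 1.75 CPM in Htr2b_cKO libraries and 4.74 ± 1.11 CPM in controls, and Itgax of 2.13 ± 0.53 CPM in Htr2b_cKO libraries and 1.83 ± 1.16 CPM in controls. Itgad, Itgae, Itgb2l and Itgb6 averaged 0.163 CPM or less in each group and were not tested.

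Outside the receptors, 0 of 27 ligand genes passed, with 19 above 0 and 8 below and a median log2 fold change of 0.12. Fn1, the ligand of alpha 5 beta 1, had 11707, 8486, 4920 and 11017 CPM in Htr2b_cKO libraries, against 7221 and 11870 CPM in controls, with its lowest value, as for Itga5, in the library labelled Htr2b_cKO 3. Vtn, which encodes vitronectin, had 3.06, 3.71, 1.36 and 2.41 CPM in Htr2b_cKO libraries, against 6.74 and 7.92 CPM in controls. It was the ligand gene with the smallest p, with a log2 fold change of -1.48 (SE 0.35, edgeR adjusted p = 0.327). Spp1, the osteopontin gene, averaged 304 ± 114 CPM in Htr2b_cKO libraries and 170 ± 62 CPM in controls, and the ranges overlapped (adjusted p = 0.606).

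Of the adaptors and kinases at the integrin tail, 23 of 24 were tested and 0 passed, with 9 above 0, 14 below and a median of -0.04. Lims1, which encodes the PINCH-1 partner of integrin-linked kinase, averaged 82.0 ± 10.4 CPM in Htr2b_cKO libraries and 64.1 ± 6.6 CPM in controls (log2 fold change 0.36, edgeR adjusted p = 0.52). Ptk2b, which encodes the focal adhesion kinase relative PYK2, averaged 46.7 ± 4.9 CPM in Htr2b_cKO libraries and 61.2 ± 6.2 CPM in controls (log2 fold change -0.39, adjusted p = 0.461). Htr2b_cKO libraries lay wholly above both controls for 1 of the 23 and wholly below for 4, where 10.6% of all genes lay wholly above and 8.98% wholly below. Among those below, the talin gene Tln1 had 383, 360, 322 and 382 CPM in Htr2b_cKO libraries, against 424 and 384 CPM in controls. It was just short of overlap (log2 fold change -0.16, SE 0.15, edgeR adjusted p = 0.757). Kindlin-2, from Fermt2, had 143, 125, 122 and 139 CPM in Htr2b_cKO libraries, against 104 and 122 CPM in controls, while the epithelial Fermt1 was at 0 in all 6 libraries, which allows up to 0.0781 to 0.108 CPM per library.

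Among 8 genes of integrin inhibition and recycling 0 passed, with 2 above 0 and 6 below. Snx17, a sorting nexin that returns beta 1 to the surface, averaged 73.3 ± 7.0 CPM in Htr2b_cKO libraries and 85.6 ± 4.2 CPM in controls (edgeR adjusted p = 0.638). Rab21, which carries internalised integrins, averaged 69.6 ± 1.2 CPM in Htr2b_cKO libraries and 62.2 ± 2.5 CPM in controls (edgeR adjusted p = 0.686). Of 8 membrane partners 0 passed, 2 being above 0 and 6 below, and Htr2b_cKO libraries lay wholly below both controls for 4, among them the tetraspanins Cd151 and Cd81, where 8.98% of all genes lay wholly below. Cd151 had 151, 149, 148 and 137 CPM in Htr2b_cKO libraries, against 184 and 182 CPM in controls (log2 fold change -0.33, SE 0.12, edgeR adjusted p = 0.462). Cd81 averaged 295 ± 18 CPM in Htr2b_cKO libraries and 346 ± 9 CPM in controls (adjusted p = 0.625).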

How the data were processed

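RNA of 6 libraries was measured. Per the file headers, whose column names have the form of a transcript quantifier's gene output, the authors deposited estimated counts as whole numbers per Ensembl gene. The normalized signal deposited by the authors divides each of them by a factor of gene and library. DRAGEN, DESeq2 and mm10 are named, per the submitters' processing notes, without roles. Symbols, positions and exon lengths came from GENCODE M21 of that build, which matched all 42256 identifiers.

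The test was the edgeR 4.0.16 quasi-likelihood F test (R 4.3.3, two-sided) on the counts as deposited, with TMM, filterByExpr, robust fitting and genotype as its only term, adjusted over 15840 genes and called at 0.05. It was also run on simulated data, a check that required no calls for changes as small as those of the members, so it does not measure the power to call them. SE is the size of the log2 fold change over the square root of F. Alternatives were RLE scaling, no filter, DESeq2 1.42.0, limma voom 3.58.1, the legacy fit, a lowess adjustment for GC and length, the authors' factors, and leaving libraries out. Levels, shares and ratios are descriptions. Floors cover counting error only. No library was a copy of another (chi-square over degrees of freedom, 47.4 to 191 for the 15 pairs). Replicates were numbered in accession order. The design text speaks of animals, and p-values measure the spread between these libraries.

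The members and lists were chosen with earlier results of these data known. Named were the members, checks of the labels, other integrin genes of at least 1 CPM, per pathway list the called genes or the 2 of smallest p, and the 3 nearest profiles; Fn1, Tln1, Fermt1 and Fermt2 were chosen after their values were seen. The lists share Itga2b, Postn, Col1a1 and Col1a2. Marker lists not given beside a result summed, in Htr2b_cKO libraries and then controls, to 69.3 to 138 and 66.8 to 266 CPM (6 endothelial genes), 4.34 to 10.1 and 2.93 to 4.24 CPM (6 Schwann) and 7.46 to 35.1 and 15.6 to 61.0 CPM (5 erythroid).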

Additional observations from a re-analysis of the deposited data

Results flagged for a closer look

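Itga5 in the library labelled Htr2b_cKO 3 stood far below the other 3 Htr2b_cKO libraries. It was at 184 CPM, and the next lowest was at 307 CPM, a gap that took up 0.892 of the range of the group, above Dixon's 95% limit for 4 samples. Chance alone sets apart about 1 in 20 such groups, and 10 members were examined.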

How the results depend on the processing

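The number of members called was 0 in the fit reported and in all 14 alternatives. Over all genes the number called was 3, and it was 5 with no low-count filter, 106 with DESeq2, 5 without both Htr2b_cKO 3 and Htr2b_cKO 4, and 1 to 8 when 1 library was left out. Of 140 member values under an alternative, 15 changed sign, all of them in Itga1, Itga4, Itga7, Itgb3 and Itgb5. Adjusted for GC and length, log2 fold changes were -0.41 for Itga1, -0.0048 for Itga4 and 0.00031 for Itgb3. Without both Htr2b_cKO 3 and Htr2b_cKO 4 they were -0.0089 for Itga1, 0.16 for Itgb3 and -0.024 for Itgb5. Leaving out 1 library gave -0.032 to 0.10 for Itga1, -0.37 to 0.19 for Itga7, -0.39 to 0.36 for Itgb3, -0.11 to 0.37 for Itgb5 and -0.26 to 0.26 for Htr2b, which failed the filter on low counts without the library labelled Htr2b_cKO 3. The causes were not tested. The number of neighbours in the order of levels that lay apart was 4, and 5 with the longest transcript. With that length the mean ratio of Itga1 to Itga11 was 0.287 in place of 0.175. The mean ratio of the alpha members together to Itgb1 was 0.464 in place of 0.407. Among the alpha members, Itga5 then made up 53.4 to 64.3% and Itgav 20.9 to 30.0% over the libraries. No paired analysis was possible because the labels give no replicate numbers that the groups share. Itga8 had 64 to 335 counts per library with a coefficient of variation of 67.2% and an SE of 0.73, Itga4 104 to 484 counts with 56.4% and 0.62, and Itga7 220 to 453 counts with 17.7% and 0.24.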
